A study of Mus musculus with 4 samples.

Results

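The cytosolic ribosomal protein genes were taken as every gene whose symbol starts with Rps or Rpl followed by a digit, plus Rpsa, Rplp0, Rplp1 and Rplp2, without the S6 kinases (10 symbols starting Rps6k) and without 5 symbols carrying "-ps", the mark of a pseudogene. This gave 86 of the 32285 genes in the feature table, 34 named for the small and 52 for the large ribosomal subunit. The rule reads symbols only, though it was set with earlier results of these data known. In 9 of the 86 the symbol belongs to a paralog or to a protein that is not part of the ribosome (Rpl3l, Rpl7l1, Rpl10l, Rpl22l1, Rpl36al, Rpl39l, Rps27l, Rps27rt and Rps19bp1), which leaves 77 standard genes. All but Rpl10l had at least 1 unique molecular identifier (UMI, a tag that counts each captured RNA molecule once), and together the 86 genes held 78914452 of the 448818207 UMIs in the deposited matrices.

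The study followed tibial muscle of Nse-Bmp4 mice, in which the neuron-specific enolase promoter drives Bmp4 and muscle injury leads to bone formation outside the skeleton. The mice were of the C57BL/6 background and 6 to 8 weeks old, and all 4 libraries came from the transgenic line, so no wild-type muscle enters these comparisons. Single cells were sequenced from Uninjured muscle and 1, 3 or 7 days after injury (dpi) with cardiotoxin, a snake toxin that destroys muscle fibres. Each time point was 1 library of 3 pooled muscles. Time point and library therefore cannot be told apart, no test between time points was possible, and every 95% interval given here covers counting error only.

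Cells were assigned to classes by fixed marker genes and not by an annotation of the authors, so a class is a gate that can hold several cell types. After filtering, 10307, 9641, 12604 and 20301 cells remained in the Uninjured, 1, 3 and 7 dpi libraries, and 96.5, 90.2, 80.0 and 78.6% of them entered a class. The median UMIs per cell were lower at each later time, from 8629 in Uninjured through 5562 and 4214 to 3083 at 7 dpi. The libraries shared between 30 and 95 cell barcodes per pair.

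A cytosolic ribosome joins a small subunit, which reads the messenger RNA, to a large subunit, which forms the peptide bond. The mRNAs of its proteins are among the most abundant in any cell, and most begin with a cytosine followed by a run of pyrimidines, the 5′ terminal oligopyrimidine (TOP) motif. Through this motif their translation is tied to nutrient and growth signalling by mTOR and the RNA-binding protein Larp1. Naive lymphocytes are known in single-cell data for a high share of these transcripts, and mature neutrophils for little translation machinery.

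Start sites for 66 of the 86 genes were found in RefSeq (build GRCm38.p6), giving 78 starts. A run of at least 5 pyrimidines that opened with C within 5 bases of the start was present at 32 of the 78 starts (41.0%), against 6027 of 32851 starts of all genes (18.3%). The letters CCGGAAG, searched on both strands of the promoter, were present at 34.6% of the starts of ribosomal protein genes and 8.86% of all starts, and AAGATGG at 15.4% and 6.34%. The windows printed here hold the 10 bases before the start and the first 20 bases from it, read on the coding strand, and capitals mark the pyrimidine run. They are shown for members whose response to injury stood apart from that of the other members, first 6 that lay above the median of the members in every profile (a cell class at 1 time) measured for them and then 4 that lay below it in at least 23 of 25 or in all 22 profiles measured, so that both groups can be read side by side. Rps15 lies at chr10:80292421-80292450 (plus strand), Rpl13a at chr7:45128726-45128755 (minus), Rpl12 at chr2:32961702-32961731 (plus), Rps6 at chr4:86857348-86857377 (minus), Rpl5 at chr5:107900518-107900547 (plus), Rps12 at chr10:23787190-23787219 (minus), Rps27 at chr3:90213629-90213658 (minus), Rpl35 at chr2:39005112-39005141 (minus), Rpl37 at chr15:5116603-5116632 (plus) and Rpl39 at chrX:37085203-37085232 (minus).
Rps15: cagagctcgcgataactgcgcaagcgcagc
Rpl13a: cctgcgacaagaCCTCCTCCTTTCCCaggc
Rpl12: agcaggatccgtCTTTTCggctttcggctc
Rps6: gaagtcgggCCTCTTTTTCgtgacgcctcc
Rpl5: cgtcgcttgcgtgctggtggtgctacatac
Rps12: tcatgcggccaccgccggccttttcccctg
Rps27: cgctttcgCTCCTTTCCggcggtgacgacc
Rpl35: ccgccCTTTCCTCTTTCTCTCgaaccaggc
Rpl37: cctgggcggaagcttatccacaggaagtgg
Rpl39: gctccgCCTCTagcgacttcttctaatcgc
Both groups held windows with a run and windows without one. A window without capitals says only that no such run lies near this annotated start. The Rps15 window, placed by RefSeq, ends before the Rps15 locus given further on, which comes from another annotation (GENCODE).

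The share of a class's UMIs that came from ribosomal protein genes differed far more between cell classes than between time points. In Uninjured muscle it was 39.3% in T cells (95% interval 39.2 to 39.4), 27.3% in Myogenic cells, 27.2% in B cells, 24.9% in NK cells, 19.6% in Monocyte/macrophage cells, 14.1% in Mesenchymal cells, 9.34% in Schwann cells, 8.73% in Mural cells and 4.40% in Neutrophils. The highest share was 8.94 times the lowest in Uninjured (T over Neutrophil, 9 classes of at least 50 cells), 7.20 times at 1 dpi and 5.17 times at 3 dpi (Granulocyte progenitor over Neutrophil, 12 classes each) and 4.29 times at 7 dpi (T over Neutrophil, 11 classes). Among the 8 classes present in all 4 libraries, Neutrophils were the lowest and Schwann cells the next lowest in every library. T cells were the highest in 3 of the 4 libraries and came after Myogenic cells at 3 dpi. The class with the highest share at 1 and 3 dpi, Granulocyte progenitors, had medians of 23034 and 12164 UMIs per cell, while T cells, the highest in Uninjured and at 7 dpi, had medians of 3574 and 1967.

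**Figure D1:**
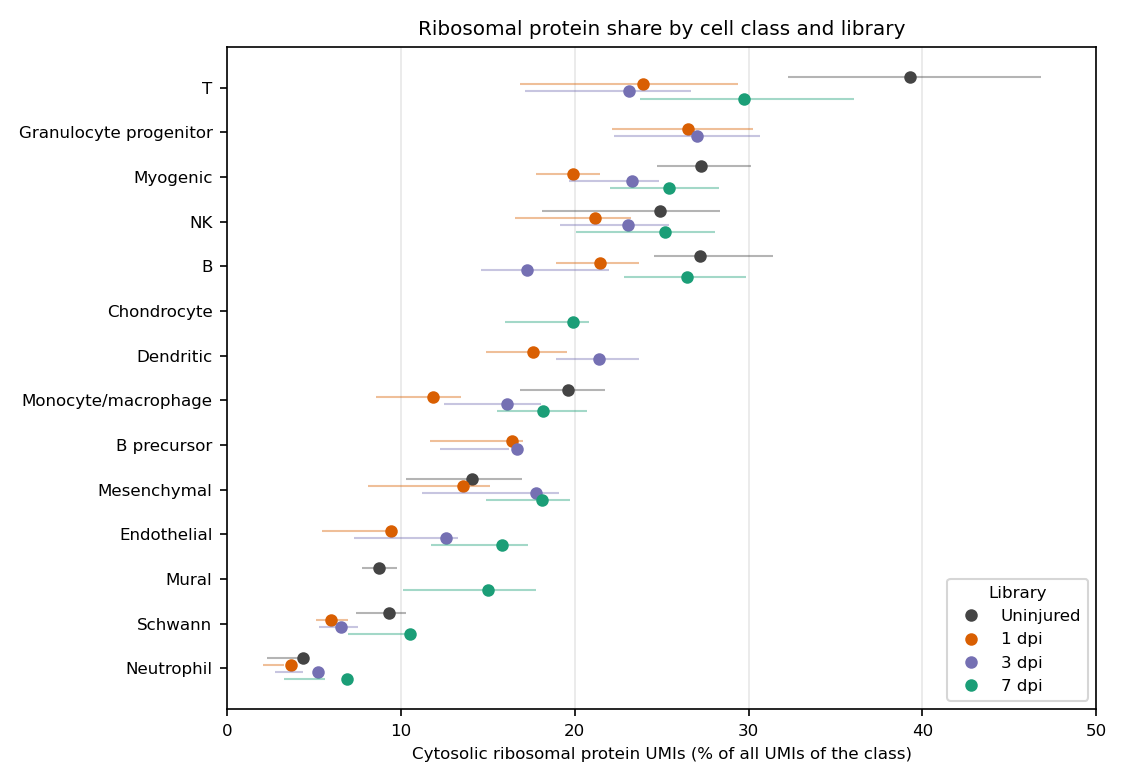
Share of UMIs from the 86 ribosomal protein genes (x axis, percent of the UMIs of a class) by cell class (y axis) and library (colours). Points are the class totals and thin lines the interquartile range over single cells, which is no replicate error. T cells go from 39.3% in Uninjured to 23.1% at 3 dpi, and Neutrophils stay between 3.68 and 6.92%.

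The class at the bottom and the class at the top at 1 and 3 dpi belong to the same lineage. Granulocyte progenitors, gated on primary-granule genes such as Mpo and Elane, gave 26.5% of their UMIs to ribosomal protein genes at 1 dpi and 27.0% at 3 dpi, and Neutrophils 3.68 and 5.23% in the same libraries. The summed level was thus 7.20-fold (95% interval 7.15 to 7.24) and 5.17-fold (5.12 to 5.22) higher in the progenitors. Every one of the 83 members with at least 100 UMIs at 1 dpi, and of the 82 at 3 dpi, was past 1.5-fold in this direction, where 40.9% and 46.6% of all genes tested were. No member was past 1.5-fold lower, against 29.7% and 26.1% of all genes. Cells of these classes were not matched on UMIs per cell, and the part of depth in this contrast was not tested.

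After injury the summed share moved in different directions in different classes. Relative to Uninjured it was lower at 1 dpi in all 8 classes that could be compared. At 3 dpi it was higher in 2 and lower in 6, and at 7 dpi higher in 5 and lower in 4 of 9. These tallies include Mesenchymal cells at 1 dpi, Neutrophils and NK cells at 3 and 7 dpi and B cells at 7 dpi, whose direction turned under at least 1 other setting.

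In T cells the share went from 39.3% in Uninjured to 23.9, 23.1 and 29.7% at 1, 3 and 7 dpi, so that the ratios to Uninjured were 0.608 (95% interval 0.606 to 0.610), 0.589 (0.586 to 0.591) and 0.756 (0.753 to 0.759). A T cell held a mean of 1545 UMIs from these genes in Uninjured and 1055, 623 and 735 at the later times, while its other UMIs numbered 2385, 3359, 2070 and 1739. The lower share at 1 dpi thus held fewer ribosomal protein UMIs and more of all others. Of 82 members tested, 56, 52 and 17 were past 1.5-fold lower at 1, 3 and 7 dpi, where 5.37, 5.89 and 4.07% of all genes tested in T cells were. Past 1.5-fold higher were 3, 2 and 1 members, against 41.2, 39.8 and 15.2% of all genes. The median log2 ratio of the members was -0.77, -0.70 and -0.34, and that of all genes 0.06, 0.11 and 0.12. T cells are not uniform: those with a UMI of Ccr7 or Lef1, genes of naive and central memory T cells, held 41.5, 26.4, 26.9 and 34.0% ribosomal protein UMIs in Uninjured, 1, 3 and 7 dpi, and those without either held 30.6, 19.8, 21.1 and 26.8%. This split was chosen after the values had been seen. Cells with either gene were 271 of 347 in Uninjured and 285 of 918 at 3 dpi, and in both groups the share was lower after injury than before.

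Monocyte/macrophage cells were at 19.6, 11.8, 16.1 and 18.2%, with ratios to Uninjured of 0.604 (0.602 to 0.606), 0.822 and 0.929. At 1 dpi, 56 of 83 members were past 1.5-fold lower and 2 higher, against 9.93 and 30.3% of all genes in this comparison. At 3 dpi the counts were 19 lower and 4 higher (all genes 6.58 and 25.3%), and at 7 dpi 2 lower and 4 higher (4.45 and 6.46%). The low at 1 dpi was seen in cells with a UMI of C1qa, a complement gene of tissue macrophages (17.2, 11.3, 15.3 and 16.6%), and in cells with Ly6c2 and no C1qa, as in inflammatory monocytes (20.002, 12.2, 16.5 and 18.5%), a split again chosen after the values had been seen.

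Schwann cells, which wrap nerve fibres, were at 9.34, 6.00, 6.58 and 10.5%, lower than Uninjured at 1 and 3 dpi and higher at 7 dpi (1.13, 1.11 to 1.14). Here 53 of 80 members were past 1.5-fold lower at 1 dpi and 28 at 3 dpi (all genes 16.9 and 18.2%), with 2 and 4 higher (19.5 and 16.1%). At 7 dpi none were lower and 8 were higher, against 11.3 and 7.17% of all genes. B cells were at 27.2, 21.4, 17.2 and 26.5% and NK cells at 24.9, 21.2, 23.1 and 25.2%. In B cells 19 of 83, 41 of 81 and 1 of 80 members were past 1.5-fold lower at 1, 3 and 7 dpi (all genes 9.86, 21.6 and 8.8%), and 6, 4 and 2 higher (35.8, 18.4 and 4.16%). In NK cells the lower counts were 7 and 12 of 82 and 1 of 81 (all genes 9.88, 10.3 and 6.07%) and the higher ones 6, 8 and 2 (28.8, 28.2 and 6.22%). B cells at 3 dpi thus stood out from NK cells of the same library, with a ratio of 0.634 (0.628 to 0.639) against 0.927 (0.921 to 0.933).

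Myogenic cells, which hold satellite cells and their progeny, were at 27.3, 19.9, 23.3 and 25.4%, the highest shares outside the blood lineages. Past 1.5-fold lower were 35 of 82, 19 of 83 and 3 of 83 members (all genes 35.4, 13.4 and 7.19%), and higher 3, 6 and 2 (22.3, 34.3 and 7.29%). Cells with Pax7, the satellite cell factor, and no Myog were at 26.7, 19.9, 23.0 and 24.6%. Cells with Myog, a gene of differentiating myoblasts, were at 28.3, 23.6 and 26.4% in Uninjured, 3 and 7 dpi, where 35, 68 and 59 such cells were found, so the level was close to that of the Pax7 cells in each library.

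Mesenchymal cells were higher than Uninjured at 3 and 7 dpi, though not at 1 dpi. Their share was 14.1, 13.5, 17.8 and 18.1%, and the ratios to Uninjured were 0.960 (0.959 to 0.961), 1.26 (1.26 to 1.26) and 1.28 (1.28 to 1.28). The medians over single cells were 13.3, 11.5, 15.5 and 17.4%. The count of members past 1.5-fold higher was 12, 24 and 26 of 84, where 19.9, 22.2 and 21.4% of all genes tested were. Past 1.5-fold lower were 1, 7 and 0 members, where 9.96, 16.4 and 18.3% of all genes were. In cells of 3000 to 8000 UMIs the counts at 1 dpi were 4 higher and 20 lower, and with scaling by the median of gene ratios 5 and 15, so the balance at 1 dpi depended on the setting. In that depth window 11 were higher at 3 dpi. The shares of all genes given above belong to the main setting and not to these others. The median log2 ratio of the members was -0.14, 0.43 and 0.39, beside 0.18, 0.11 and 0.02 over all genes. A Mesenchymal cell held a mean of 1324 ribosomal protein UMIs in Uninjured and 1231, 1582 and 1037 later, and 8060, 7854, 7313 and 4694 other UMIs, so that at 7 dpi the higher share stood beside fewer ribosomal protein UMIs per cell.

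The direction in Mesenchymal cells at 1 dpi depended on which of them were counted. Cells with a UMI of Pi16, a gene of adventitial fibroblasts, had shares of 15.5, 14.5, 17.998 and 17.0%, and cells without it 11.7, 12.4, 17.6 and 18.5%. Without the Pi16 cells the ratio at 1 dpi was 1.06, above 1, and at 3 and 7 dpi 1.51 and 1.58, a setting chosen after the values had been seen. Cells with and without Pi16 were not matched on UMIs per cell, and the part of depth in this split was not tested. The summed level of 13 immediate early and heat shock genes, which respond to handling and dissociation as well as to injury, went from 31437 counts per 1000000 UMIs of the class (CPM) in Uninjured to 21243, 12310 and 10153 CPM, and its part in the result was not tested. Mitochondrial UMIs made up 1.76, 3.61, 3.01 and 3.24% of the class, and with the mitochondrial genes taken out of the total the ratios were 0.978, 1.28 and 1.30.

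Depth touched the Mesenchymal result as well. Within Uninjured the share was higher in cells of more UMIs, from 7.37% in cells of 1000 to 2000 UMIs to 15.6% in cells of 16000 to 32000, while at 7 dpi it ran from 16.6 to 20.02% over the same range. At 1 dpi it was 11.6% in the shallowest bin, 9.47% in the next and 18.6% in the deepest. The 7 dpi cells were above the Uninjured cells in all 5 bins. In cells of 3000 to 8000 UMIs alone the ratios were 0.814, 1.08 and 1.30. T cells of 2000 to 4000 UMIs were at 38.3, 22.1, 23.7 and 32.4% in Uninjured, 1, 3 and 7 dpi and those of 4000 to 8000 UMIs at 43.3, 25.1, 24.04 and 28.4%. The Uninjured library was the highest of the 4 in both bins, which match cells on total UMIs only. Monocyte/macrophage cells of 4000 to 8000 UMIs were at 19.1, 10.9, 15.9 and 18.4%.

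**Figure D2:**
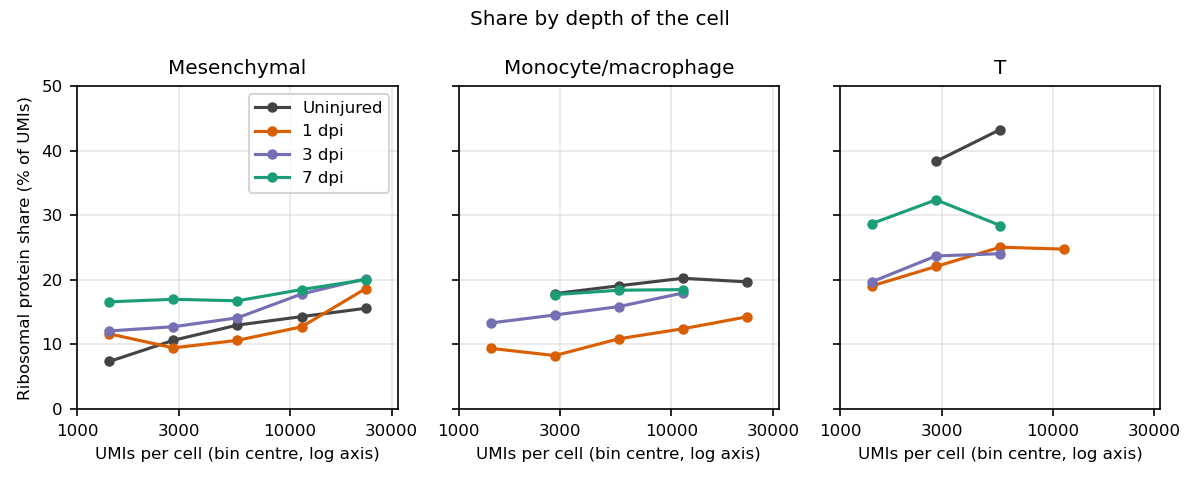
Share of UMIs from ribosomal protein genes (y axis, percent) against UMIs per cell (x axis, log scale, bin centres) in Mesenchymal, Monocyte/macrophage and T cells, one line per library. In Mesenchymal cells the 7 dpi line runs from 16.6 to 20.02% and lies above the Uninjured line, which runs from 7.37 to 15.6%, in each bin.

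Mesenchymal cells in the cell cycle, gated on at least 3 proliferation genes, had shares of 14.3, 20.2, 19.6 and 18.6%, and those with no sign of cycling 13.99, 12.7, 16.3 and 17.6%. Both were nearly level in Uninjured (95% intervals 14.2 to 14.3 and 13.98 to 13.999), and the gap was widest at 1 dpi. The cycling cells numbered 97, 95, 767 and 1555 and were deeper, with medians of 15532, 19391, 18100 and 4755 UMIs against 9026, 7670, 4653 and 3195. The part of depth in this gap was not tested.

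Chondrocytes, the cartilage cells through which ectopic bone forms, were found at 7 dpi alone, where 4639 cells passed the gate, and no Uninjured cell did. They could therefore be set only against Mesenchymal cells of the same library. Their share was 19.9%, 1.10-fold (1.10 to 1.10) that of the Mesenchymal cells. Of 84 members, Rpl39l was the 1 past 1.5-fold higher and none was lower, against 6.48 and 11.2% of all genes. Chondrocytes with Col10a1, the collagen of hypertrophic cartilage, were at 18.6% (1109 cells) and those without it at 20.3% (3530 cells).

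Mural cells, which wrap small vessels, had the largest relative gain of the classes compared at 7 dpi in the main setting. They went from 8.73% of 117 cells' UMIs in Uninjured to 15.0% of 342 cells', a ratio of 1.72 (1.71 to 1.73). In cells of 3000 to 8000 UMIs the Mural ratio was 1.32, below the 1.39 of Schwann cells. Mesenchymal markers in the Mural class went from 259 to 1157 CPM and Chondrocyte markers from 24.7 to 320 CPM. The part of such RNA in the Mural ratio was not tested. Of 83 members, 58 were past 1.5-fold higher and none lower, where 28.9 and 18.4% of all genes were. Neutrophils, the lowest class, were at 4.40, 3.68, 5.23 and 6.92% and a ratio of 1.58 (1.53 to 1.62) at 7 dpi, from 51 Uninjured cells. With every deposited barcode the direction turned, with ratios of 0.828 at 3 dpi and 0.888 at 7 dpi. From Uninjured to 7 dpi, Chondrocyte markers in the Neutrophil class went from 4.32 to 467 CPM and Mesenchymal markers from 86.5 to 395 CPM. Neutrophil markers went from 25671 to 15274 CPM. The part of such RNA in the Neutrophil ratio was not tested. In Neutrophils 3 of 80, 21 of 79 and 43 of 70 members were past 1.5-fold higher (all genes 42.1, 36.5 and 35.8%), and 14, 5 and none lower (6.55, 7.59 and 12.1%).

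Single members did not move as a block, and those that departed from the rest did so alike in unrelated cell classes. For each class and time the log2 ratio of a member to Uninjured was centred on the median of the members, which takes out the class-wide shift. Over the 47 members with at least 100 UMIs in every class and library compared, the standard deviation between members was 0.26, 0.42 and 0.24 log2 units at 1, 3 and 7 dpi, and the mean standard deviation of a member between classes was 0.13, 0.15 and 0.13. All classes of a time point come from 1 library and all share the Uninjured library, so agreement between classes is no replication. Of 80 members measured in at least 10 class-by-time profiles, 12 lay above the member median in every profile and 6 below it in every profile. Those above were Rpl23a, Rps15, Rpl13a, Rpl5, Rpl12, Rps12, Rpl17, Rps6, Rpl4, Rpl14, Rps14 and Rps16, and those below were Rpl35, Rpl36, Rps29, Rpl37, Rpl34 and Rpl22l1. The 12 together made up between 8.42 and 9.63% of the ribosomal protein UMIs of a class in Uninjured, 12.1 to 15.5% at 1 dpi, 13.7 to 16.7% at 3 dpi and 11.01 to 12.6% at 7 dpi, so the ranges over classes did not overlap between Uninjured and any later library. The 6 made up 8.26 to 10.3% in Uninjured and 4.84 to 6.33% at 3 dpi. Both sets were defined from these values, which therefore describe them and test nothing.

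**Figure D3:**
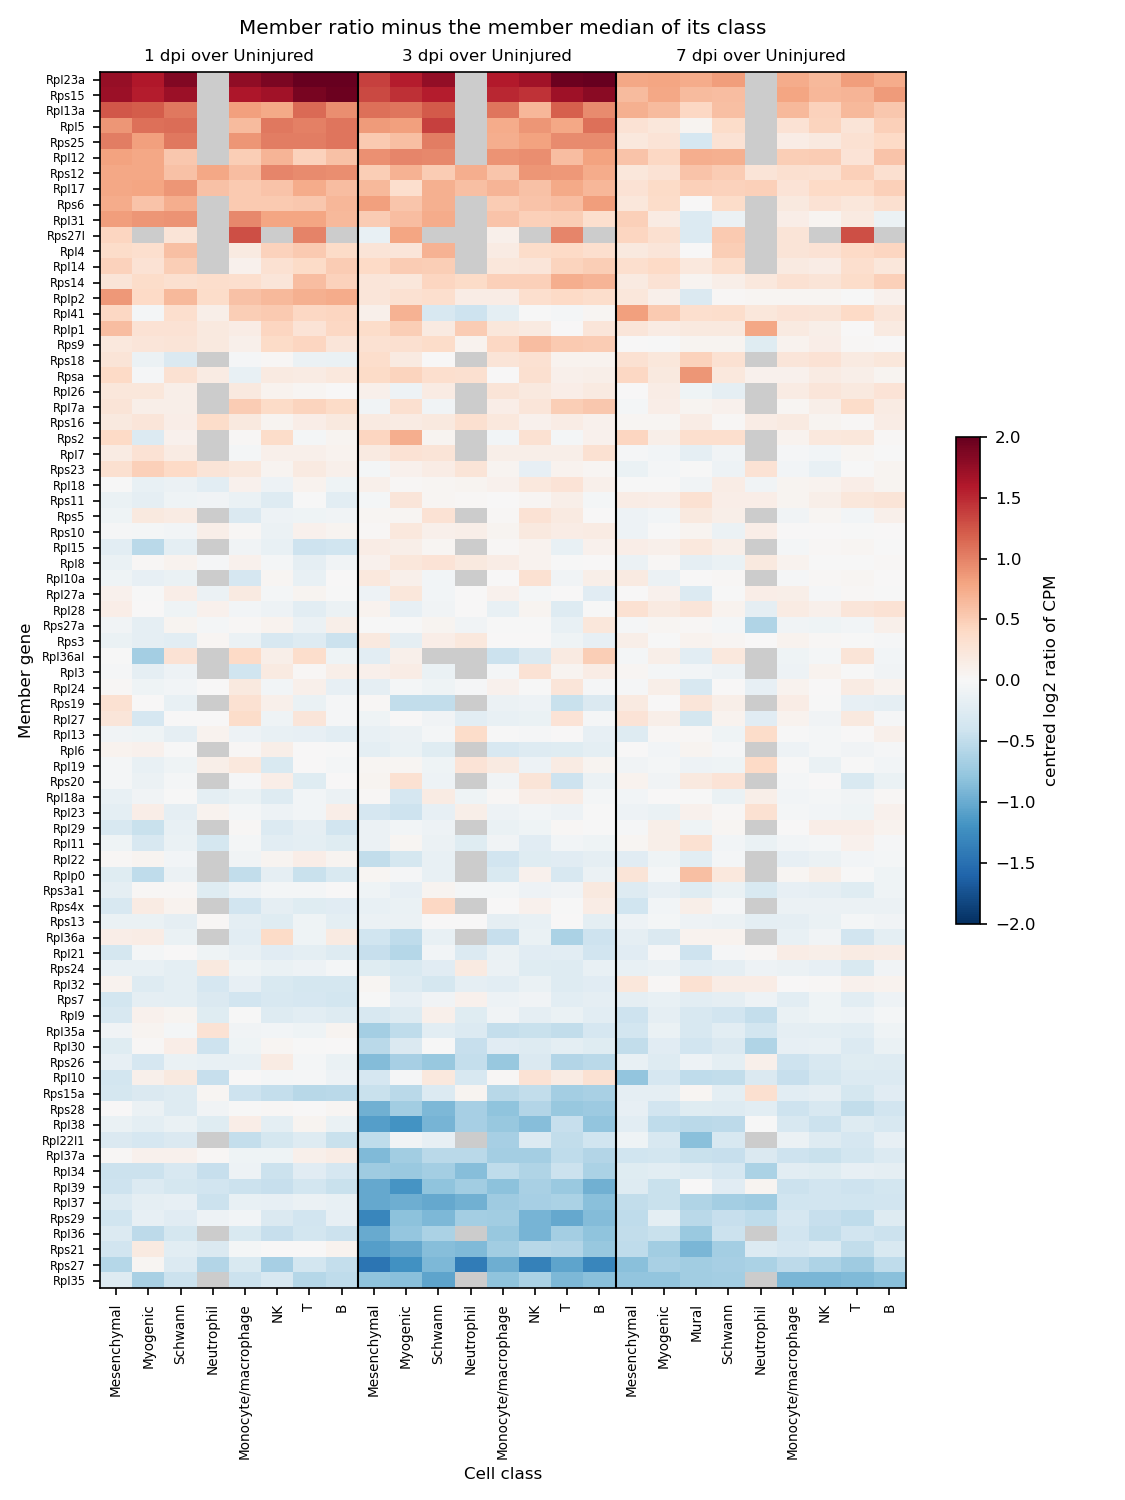
Log2 ratio to Uninjured of 78 of the 80 ribosomal protein genes measured in at least 10 profiles (the other 2 are not shown), centred on the median of the members of each class and time (colour, red above and blue below). Columns are the cell classes at 1, 3 and 7 dpi, genes are sorted by their median, and grey marks under 100 UMIs in a library. Rpl23a and Rps15 are red and Rpl35 is blue in every column with a value.

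Rpl23a, a large subunit protein near the exit of the peptide tunnel where the signal recognition particle docks, was the member that stood farthest above the others. Its gene lies at chr11:78180932-78183584 (minus strand, GRCm38). In Mesenchymal cells it stood at 456 CPM in Uninjured and at 1384, 1581 and 1023 CPM at 1, 3 and 7 dpi. All 3 injured libraries were above the Uninjured one, by 3.04-fold (3.00 to 3.08), 3.47-fold (3.43 to 3.51) and 2.25-fold (2.22 to 2.28). In T cells, whose summed share was lower after injury, it still went from 889 to 2152, 2117 and 1248 CPM, and in Monocyte/macrophage cells from 543 to 1089, 1418 and 877 CPM. Over the classes with enough UMIs its ratio ran from 2.003 (Monocyte/macrophage) to 3.35 (B) at 1 dpi, from 2.38 (T) to 3.47 (Mesenchymal) at 3 dpi and from 1.40 (T) to 2.98 (Mural) at 7 dpi. Of the 91-base windows of its transcripts, 80.4% also occurred in other annotated transcripts, so that its count depends on how such reads were assigned.

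Rps15, a small subunit protein (chr10:80292453-80294114, plus strand), ran nearly parallel with only 12.7% of its windows shared. Its Mesenchymal levels were 543, 1610, 1823 and 1102 CPM, or 2.97-fold (2.93 to 3.00), 3.36-fold (3.32 to 3.40) and 2.03-fold (2.005 to 2.06) the Uninjured level. In T cells it stood at 1206, 2644, 2406 and 1533 CPM. Rpl13a (chr7:45125558-45128761, minus strand), which also takes part in the interferon-gamma-activated block of inflammatory mRNA translation, was at 875, 1878, 2514 and 1881 CPM in Mesenchymal cells, with ratios of 2.15, 2.88 and 2.15. Its ratio was above 1 in every class compared, with an interval that reached below 1 only in Monocyte/macrophage cells at 1 dpi (1.03, 0.986 to 1.08).

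Rpl12, at the base of the stalk that receives elongation factors, stood at 993, 1572, 2526 and 1939 CPM in Mesenchymal cells (1.58, 2.54 and 1.95-fold). Rpl5, which with Rpl11 and 5S rRNA can bind the p53 regulator Mdm2, stood at 559, 935, 1351 and 896 CPM (1.67, 2.42 and 1.60-fold). Rps12 stood at 2358, 3677, 4445 and 3593 CPM (1.56, 1.88 and 1.52-fold). These 3 were above the member median in every profile, yet in T cells Rpl12 itself was lower than in Uninjured at each time, with ratios of 0.806, 0.936 and 0.955.

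At the other end was Rps27, a small subunit protein with a zinc finger (chr3:90212522-90213651, minus strand). In Mesenchymal cells it stood at 2699, 1656, 1321 and 1974 CPM, or 0.613 (0.608 to 0.619), 0.490 (0.485 to 0.494) and 0.731 (0.726 to 0.737) of Uninjured. In T cells it stood at 12598, 5775, 3734 and 6107 CPM and in Monocyte/macrophage cells at 3822, 1815, 1685 and 2547 CPM, and the order of the libraries, Uninjured, 7, 1 and 3 dpi from high to low, was the same in all 3 classes. At 3 dpi its ratio ran from 0.267 in B cells to 0.490 in Mesenchymal cells, below 1 in all 8 classes. It was below the member median in 24 of 25 profiles. Of its windows, 98.4% also occurred in other transcripts, the largest share of any member. Rps29 was below the median in all 25 profiles, at 3942, 2726, 2151 and 3627 CPM in Mesenchymal cells. Rpl35 kept a level of 1503, 1143, 1151 and 1140 CPM there, about the same in all 3 injured libraries.

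Across the Mesenchymal, Monocyte/macrophage, Myogenic and Neutrophil classes at 3 times, Rpl23a and Rps15 were each among the 5 highest members in 9 of the 12 lists of extremes, Rpl13a in 8, Rpl12 in 6 and Rpl5 in 4, while Rps27 was among the 5 lowest in 10, Rpl35, Rpl39 and Rps21 in 6 and Rpl37 in 5. Neutrophils were measured for 47 members only, without Rpl23a or Rps15, and were led by Rps12 at 1 dpi (1.37-fold) and 3 dpi (1.97-fold) and by Rplp1 at 7 dpi (2.70-fold). Rpl41, whose protein is among the shortest known, broke the pattern of time: in Mesenchymal cells it stood at 2418, 2940, 3480 and 5618 CPM, and it led the list at 7 dpi alone (2.32-fold, 2.31 to 2.34). It was higher than in Uninjured at 7 dpi in all 9 classes, by 1.04-fold (T) to 2.32-fold.

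Members with short coding sequences lay low at 3 dpi. Of the 86 genes 22 have a coding length under 360 bases, a limit set after the values had been seen. At 3 dpi the median centred log2 ratio of the short members lay between -0.79 and -0.51 over 8 classes, and that of the longer members between 0.03 and 0.09. At 1 dpi the short members were at -0.14 to 0, and at 7 dpi at -0.28 to -0.19. Across members Spearman's correlation of the centred ratio with coding length ran from 0.41 to 0.57 over the classes at 3 dpi, from 0.01 to 0.27 at 1 dpi and from 0.21 to 0.46 at 7 dpi, as a description over genes of 1 pair of libraries. GC content gave -0.01 to 0.18 at 3 dpi and the share of windows found in other transcripts 0.06 to 0.22. Genes outside the ribosome were split at the same length: short minus long median differences were -1.22 to -0.28 at 1 dpi, -0.70 to -0.14 at 3 dpi and -0.10 to 0.11 at 7 dpi, over 20 to 385 short genes. For the members the same differences were -0.17 to 0.005 at 1 dpi, -0.83 to -0.57 at 3 dpi and -0.38 to -0.22 at 7 dpi. Short genes outside the ribosome thus also lay lower at 1 and 3 dpi. At 7 dpi the differences were negative for the members in all 9 classes and of both signs for other genes. With the short members left out of the sum, the Mesenchymal ratios were 0.995, 1.42 and 1.34.

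**Figure D4:**
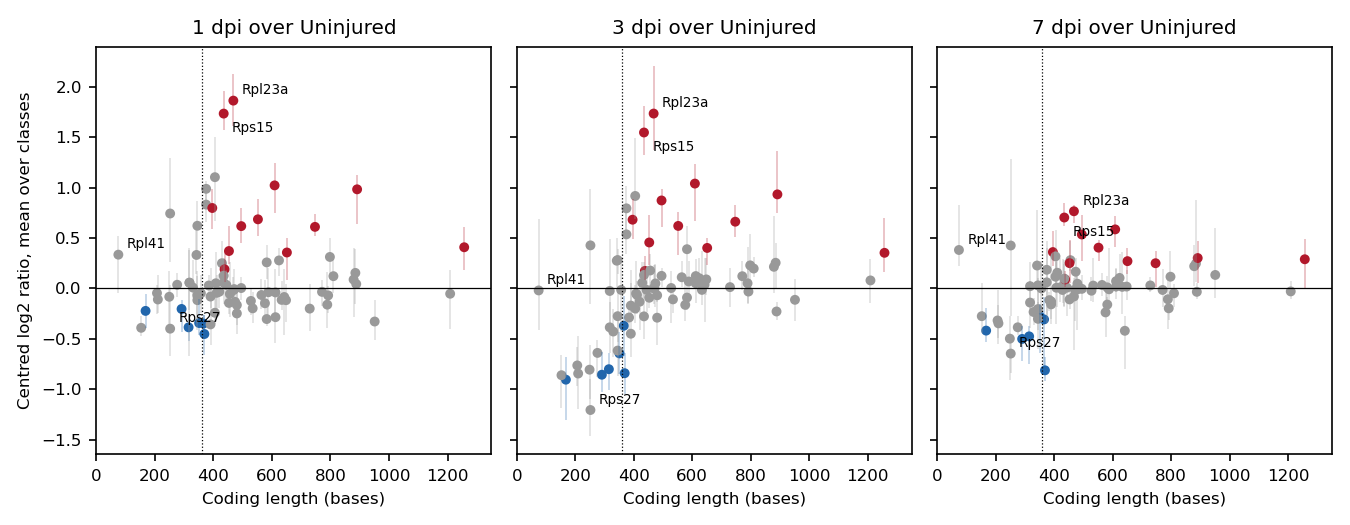
Coding length (x axis, bases) against the centred log2 ratio to Uninjured (y axis) of the ribosomal protein genes at 1, 3 and 7 dpi. Points are means over cell classes, vertical lines run from the lowest to the highest class, red marks the 12 members above and blue the 6 below the median in every profile, and the dotted line stands at 360 bases. At 3 dpi most members left of the line are below 0.

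The P stalk recruits translation factors to the large subunit and is made of Rplp0 and copies of Rplp1 and Rplp2. Rplp1 held the most UMIs of all members (2.72% of their sum), with 3735, 4343, 5595 and 5271 CPM over all cells, and Rpl13 (2.41%), Rpl41 (2.28%) and Rps24 (2.11%) were among those next to it. In Mesenchymal cells Rplp1 stood at 3354, 4693, 5844 and 5201 CPM, Rplp2 at 1297, 2145, 2060 and 1987 CPM, and Rplp0 at 2192, 1692, 3018 and 3428 CPM. Rplp0 was thus the lowest of its 4 values at 1 dpi, when the other 2 were above Uninjured. The ratio of Rplp1 to Rplp0 UMIs in these cells was 1.53, 2.77, 1.94 and 1.52, and that of Rplp2 to Rplp0 0.592, 1.27, 0.683 and 0.580. T cells had 1.64, 2.71, 2.08 and 1.65 for Rplp1 and 0.845, 1.88, 1.39 and 0.848 for Rplp2. Over 8 classes the Rplp1 to Rplp0 ratio at 1 dpi was between 1.00 (Neutrophil) and 1.81 (Mesenchymal) times that of Uninjured, and the Rplp2 to Rplp0 ratio between 1.13 (Neutrophil) and 2.22 (T) times. At 7 dpi the medians of these factors over 9 classes were 1.00 and 0.980, with single classes between 0.754 (Mural) and 1.20 (B) for Rplp1 and between 0.542 (Neutrophil) and 1.13 (B) for Rplp2. In Mural cells the Rplp2 to Rplp0 ratio was 1.22 in Uninjured and 0.663 at 7 dpi.

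Rpsa is a small subunit protein also known as the laminin receptor. Its ratio to Uninjured was above 1 in 1 of 8 classes at 1 dpi, 4 of 8 at 3 dpi and 8 of 9 at 7 dpi. Mesenchymal cells had 1878, 2243, 3301 and 3280 CPM, higher than Uninjured at each time (1.19, 1.76 and 1.75-fold). Mural cells went from 780 to 2533 CPM at 7 dpi, 3.25-fold (3.01 to 3.51), their largest ratio among the members named here. T cells had 6507, 4291, 4305 and 5600 CPM and Monocyte/macrophage cells 2722, 1432, 2357 and 2776 CPM. Both classes were lower than Uninjured at 1 and 3 dpi, and T cells at 7 dpi as well (0.861-fold). Neutrophils had 501 CPM in Uninjured, 749 at 3 dpi and 838 at 7 dpi. Rps27a, which is made as a fusion with ubiquitin, stood at 2270, 1972, 3033 and 2939 CPM in Mesenchymal cells.

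The balance of the subunits hardly moved. Small subunit genes made up 43.7, 43.9, 44.7 and 43.5% of the ribosomal protein UMIs of Mesenchymal cells and 47.9, 47.1, 46.4 and 46.1% of those of T cells. Over all classes and libraries the lowest value was 41.1% (Mural, Uninjured) and the highest 48.7% (Neutrophil, 1 dpi).

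Paralogs of ribosomal proteins were used to different extents by different classes, and are given as a percent of the UMIs of the paralog and its parent gene together. Rps27l, a p53-induced relative of Rps27, made up 0.711, 1.79, 2.84 and 2.77% of the pair in T cells and 9.14, 16.7, 19.9 and 19.6% in Mesenchymal cells. Monocyte/macrophage cells had 8.90% in Uninjured and 22.7% (22.2 to 23.2) at 1 dpi, where Rps27l itself went from 373 to 533 CPM and Rps27 from 3822 to 1815 CPM. In Myogenic cells it was 9.50, 6.09, 29.4 and 17.0%, the highest value being that of 3 dpi (28.2 to 30.6). The share was above that of Uninjured in 7 of 8, 8 of 8 and 9 of 9 classes at 1, 3 and 7 dpi. Much of this lies in the parent: in Mesenchymal cells Rps27l stood at 271, 332, 327 and 481 CPM, a smaller relative change than that of Rps27 at 1 and 3 dpi.

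Rpl22l1, the relative of Rpl22, a protein that T cell development depends on, made up 40.2, 35.1, 39.8 and 42.6% of the pair in Mesenchymal cells, 32.5, 26.7, 28.5 and 28.4% in T cells and 22.2, 17.7, 18.9 and 22.8% in Monocyte/macrophage cells. It was the 1 paralog in the group below the member median in every profile, and in 7 of 8 classes its share of the pair was lower at 1 dpi than in Uninjured. Rpl36al, a paralog of the X-linked Rpl36a, made up 48.8, 59.4, 49.3 and 50.04% of the pair in Monocyte/macrophage cells, 32.9, 30.6, 36.0 and 35.0% in Mesenchymal cells, 24.95, 31.1, 36.9 and 34.4% in T cells and 24.8, 15.8, 33.4 and 30.3% in Myogenic cells. Thus at 1 dpi the highest value of these 4 classes came from Monocyte/macrophage cells and the lowest from Myogenic cells.

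**Figure D5:**
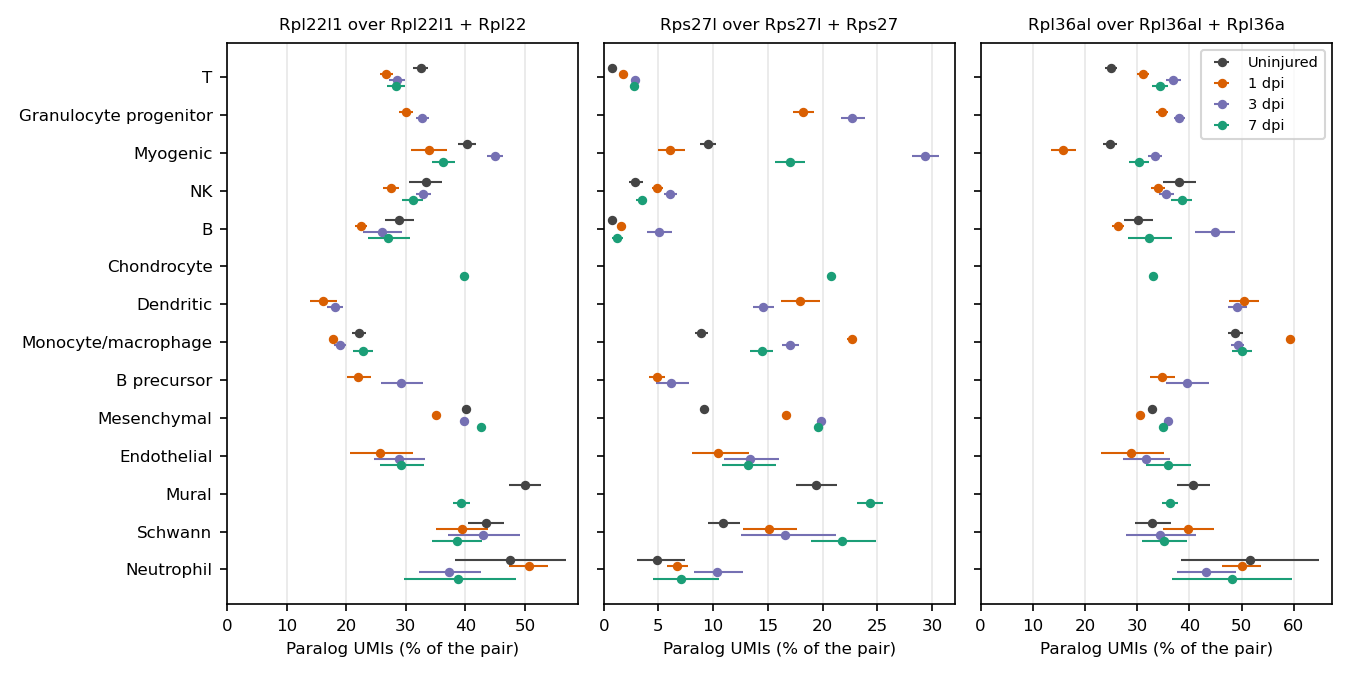
Paralog UMIs as a percent of paralog plus parent UMIs (x axis) for Rpl22l1, Rps27l and Rpl36al by cell class (y axis) and library (colours), with exact 95% intervals. Rps27l lies at 0.711 to 2.84% in T cells and reaches 29.4% in Myogenic cells at 3 dpi.

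Rps27rt is a retrogene of Rps27. Its share of the pair had medians over classes of 1.61% in Uninjured (1.27 to 1.97), 2.58% at 1 dpi (1.56 to 3.37), 2.04% at 3 dpi (1.17 to 2.43) and 3.49% at 7 dpi (2.89 to 6.49), and was 1.59, 2.65, 2.30 and 3.44% in T cells beside 1.55, 2.54, 2.10 and 3.51% in Mesenchymal cells. How reads were assigned between these similar genes was not tested. Rpl7l1, a relative of Rpl7, was lowest in T cells in each library (1.16, 2.04, 1.75 and 1.82% of the pair).

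Rpl39l, a paralog of Rpl39 best known from the testis (chr16:10170226-10174911, plus strand), was seen mainly in connective tissue classes. It stood at 11.2, 10.5, 15.3 and 21.5 CPM in Mesenchymal cells and at 35.7 CPM in Chondrocytes at 7 dpi, 1.66-fold (1.52 to 1.82) the Mesenchymal level of that library. Mural cells had 12.4 and 14.7 CPM in Uninjured and 7 dpi. All other classes were at or below 4.06 CPM, except Granulocyte progenitors at 1 dpi with 8.06 CPM from 17 UMIs. Some of these values were counts of 0 in small classes. In Endothelial cells 0 UMIs at 1, 3 and 7 dpi allow levels of up to 11.4, 7.68 and 9.55 CPM. Free RNA released from Mesenchymal cells was not measured, and its part in these low values was not tested.

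Rpl3l, the striated-muscle relative of Rpl3 (chr17:24727820-24736143, plus strand), had 136 UMIs in all 4 libraries. Myogenic cells held 0 of 5069219 UMIs, which allows a level of up to 0.592 CPM. The largest numbers were 31 UMIs in Monocyte/macrophage cells (1.44 CPM) and 22 in Neutrophils (5.37 CPM, 3.37 to 8.13), and the highest level was that of B precursors, with 10 UMIs (7.06 CPM, 3.39 to 12.99). Rpl10l, a testis paralog of Rpl10, had none in any class. Rps19bp1, a regulator of Sirt1 that binds Rps19, stood at 41.9, 35.6, 42.6 and 37.9 CPM in Mesenchymal cells. Its log2 ratio there, centred on the member median, was -0.100, -0.403 and -0.534 at 1, 3 and 7 dpi.

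Genes that work beside the ribosome were read from fixed lists, which were chosen with earlier results of these data known. Fau encodes a ribosomal protein fused to a ubiquitin-like protein, and its symbol falls outside the rule. In Mesenchymal cells it stood at 2245, 1581, 1991 and 2355 CPM. Among 17 translation factors and partners whose mRNAs are also of the TOP class, 5 (29.4%), 9 (52.9%) and 6 (35.3%) were past 1.5-fold higher at 1, 3 and 7 dpi and none lower, beside 19.9, 22.2 and 21.4% of all genes higher and 9.96, 16.4 and 18.3% lower, with median log2 ratios of 0.02, 0.62 and 0.44. Eef1g, of the elongation factor 1 complex, stood at 262, 490, 831 and 623 CPM, Npm1, the nucleolar chaperone, at 420, 646, 1161 and 963 CPM, and Rack1, a scaffold on the small subunit, at 844, 1106, 1649 and 1397 CPM.

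In Mesenchymal cells the ribosome biogenesis genes, which make and assemble subunits in the nucleolus, had their highest summed level at 3 dpi. Of 28 in Mesenchymal cells, 8 (28.6%), 22 (78.6%) and 6 (21.4%) were past 1.5-fold higher and none lower, beside 19.9, 22.2 and 21.4% of all genes higher, so the count at 7 dpi was at the background, with median log2 ratios of 0.41, 0.96 and 0.40 and summed levels of 1173, 1546, 2105 and 1598 CPM. Nucleolin (Ncl) stood at 275, 421, 536 and 449 CPM and fibrillarin (Fbl) at 41.1, 75.6, 96.0 and 75.8 CPM. The 78 mitochondrial ribosomal protein genes moved less, with 2, 8 and 9 higher and 1, 1 and 0 lower, and medians of -0.15, 0.22 and 0.21.

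Of 13 growth control genes tested, 3, 2 and 1 were higher and 1, 1 and 4 lower. Myc, which drives ribosome production, stood at 177, 219, 151 and 62.1 CPM, Mtor at 13.1, 14.7, 12.7 and 8.61 CPM, and Larp1 at 52.3, 71.6, 80.0 and 56.0 CPM. The 13 immediate early and heat shock genes had 1, 1 and 0 higher and 6, 10 and 12 lower, with Fos at 8118, 3836, 2067 and 2362 CPM. Skeletal muscle fibre genes, a sign of RNA from broken fibres, summed to 25.5, 14.1, 20.6 and 39.4 CPM in Mesenchymal cells, with 1 higher and 4 lower of 6, 1 and 5 of 6, and 4 and 0 of 7. Chondrocyte markers summed to 13.1, 5.92, 5.87 and 525 CPM in the Mesenchymal class and Neutrophil markers to 42.1, 43.5, 45.2 and 15.3 CPM. The part of these in the ribosomal protein share was not tested.

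In Monocyte/macrophage cells none, 1 and none of the 17 TOP-class factors were past 1.5-fold higher and 6, 0 and 0 lower, beside biogenesis genes with 3 of 27, 3 of 21 and 0 of 13 higher and 1 lower at each time. In T cells the TOP-class factors had 2, 0 and 0 higher and 4, 3 and 0 lower, and the biogenesis genes 4 of 22, 1 of 17 and 1 of 15 higher and 0, 2 and 0 lower. Over all genes the shares past 1.5-fold higher were 30.3, 25.3 and 6.46% in Monocyte/macrophage cells and 41.2, 39.8 and 15.2% in T cells, and lower 9.93, 6.58 and 4.45%, and 5.37, 5.89 and 4.07%.

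The genes whose level followed the ribosomal protein sum most closely over cell classes were sought among 584 other genes, over 37 class-by-library profiles of at least 100 cells from 14 classes. The 10 with the highest Pearson correlation of log2 CPM were Rack1 (0.96), Eef1b2 (0.94), Eef1a1 (0.93), Eif3f (0.93), Snrpg (0.92), Nsa2 (0.91), Tpt1 (0.91), Eif3h (0.89), Lsm4 (0.87) and Naca (0.86), and the median over all 584 was 0.13. Of these, 7 are on the list of TOP-class factors. The 80 members measured there had a median of 0.95 with the sum that includes them. The lowest were Rps27l (0.15), Rpl23a (0.54) and Rps15 (0.65). The profiles share libraries and depth, so the values are a description.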

How the data were processed

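Single-cell libraries of tibial muscle from Nse-Bmp4 mice were read as the UMI count matrices deposited by the authors, 1 per time point. Per the labels, the file headers and the study's methods, reads were aligned to mm10 with Cell Ranger 5.0.0 and analysed with Seurat 3.1.1. The end of the transcript that was read, and whether the deposited counts precede the down-sampling that the methods name, are not given in the sources used here.

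Cells beyond 2 SD of log10 UMIs or genes, or above 10% mitochondrial UMIs, were removed, as were the 7.5% of each library with the highest Scrublet doublet score. A cell joined a class with at least 3 marker genes and 2 more than for any other class (5 for Chondrocytes). B precursors needed 2 further markers and cycling cells 3. Classes under 50 cells in a library were left out. UMIs were summed per class and library and expressed per 1000000 UMIs (CPM). A gene was counted as higher or lower past 1.5-fold with at least 100 UMIs in both libraries together, and entered medians and centred ratios with 100 in each. Shares carry exact Clopper-Pearson intervals and ratios conditional binomial intervals (95%), which cover counting error only. A count of 0 was given a limit of 3 UMIs. With 1 library per time point no test was run. Total depth was 91146335 to 129007669 UMIs per library.

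The genes named were fixed by rule: paralogs and symbols without a standard place in the ribosome, the P stalk, Rpsa, Rps27a, the 5 members with the most UMIs, the 5 with the highest and the 5 with the lowest ratio in Mesenchymal, Neutrophil, Monocyte/macrophage and Myogenic cells, the 10 genes outside the set most like its sum (at least 50 CPM throughout), and the lists of TOP-class factors, biogenesis, growth control, mitochondrial ribosomal, immediate early and muscle fibre genes, with Fau. Some genes that the rule names are not reported here. Rps29, Rps6 and the other members of the sets that lay above or below in every profile were named after their values were seen. The rule, the members and the lists were chosen with earlier results of these data known. Coding lengths, loci and the shared 91-base windows come from GENCODE M21 (GRCm38) and start windows from RefSeq (GRCm38.p6). Protein sequences were not used here. The interval calculation was tested on simulated data for Mesenchymal cells at 1 dpi over 12719 genes, of which 200 were changed: 96.5% fell on the right side of 1, and 4.72% of the unchanged genes had an interval that left out 1. Python 3.11.15, scanpy 1.11.5, scipy 1.17.1, numpy 2.4.6, pandas 2.3.3 and matplotlib 3.10.9 were used. Alternatives covered the cell filters, gates, depth, scaling, fold and the genes summed.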

Additional observations from a re-analysis of the deposited data

Results flagged for a closer look

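The summed ribosomal protein level moved in opposite directions in classes of the same library. At 3 dpi the ratio to Uninjured was 1.26 in Mesenchymal and 0.589 in T cells, and at 7 dpi it was 1.72 in Mural and 0.756 in T cells. With 1 library per time point these differences between classes were not tested.

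Symbols marked as pseudogenes, which entered no comparison, also had UMIs. Over all cells at 7 dpi Rpl10-ps3 stood at 50.7 CPM, Rpl36a-ps1 at 16.1 CPM and Rpl9-ps6 at 48.3 CPM, above their levels of 38.9, 6.98 and 31.3 CPM in Uninjured. These sequences resemble their parent genes, and how many of the reads came from the parents was not tested.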

How the results depend on the processing

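No paired analysis was possible because each time point was 1 library. The Mesenchymal ratios of 0.960, 1.26 and 1.28 at 1, 3 and 7 dpi became 0.964, 1.22 and 1.23 with every deposited barcode, 0.959, 1.26 and 1.28 with doublets left in, 0.962, 1.26 and 1.28 with a gate of 4 markers, 0.814, 1.08 and 1.30 in cells of 3000 to 8000 UMIs, 0.978, 1.28 and 1.30 without mitochondrial genes, 0.878, 1.12 and 1.26 as a mean of per-cell shares and 0.847, 1.17 and 1.26 with scaling by the median of gene ratios. Chosen after seeing the data were sums without the 12 members above the median in every profile (0.902, 1.18 and 1.248), without the 22 short members (0.995, 1.42 and 1.34) and without Pi16 cells (1.06, 1.51 and 1.58). The last turned the direction at 1 dpi. The counts past 1.5-fold moved too. At 1 dpi 4 were higher and 20 lower in the depth window, 5 and 15 with median scaling, and 2 lower with no filter on low counts. At 3 dpi 11 were higher in the depth window and 46 higher and 2 lower without Pi16 cells. At 7 dpi 14 were higher with every barcode and 55 without Pi16 cells. A laxer fold limit, 5 over 4, gave 20 lower at 1 dpi, 50 higher and 12 lower at 3 dpi and 50 and 3 at 7 dpi, and a fold of 2 gave 3 and 0, 8 and 1, and 4 higher. The shares of all genes under these other settings are not given here, so these counts describe the members alone. In other classes the direction of the sum turned for Neutrophils with every barcode (0.828 and 0.888 at 3 and 7 dpi), for NK cells at 3 dpi with median scaling (1.05) and without short members (1.03) and at 7 dpi in the depth window (0.952) and without the 12 members (0.982), and for B cells at 7 dpi with every barcode (1.004), doublets left in (1.01) and without short members (1.03). In these other classes 141 values moved beyond counting error or 1.5 times, 9 turned direction and 65 did neither. The cause was not tested. A planned ratio of Chondrocytes to Uninjured was not run because no Uninjured cell passed the gate.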

Other observations

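Over the same 37 class-by-library profiles, the genes whose level ran most strongly against the ribosomal protein sum were Rab7 (Pearson's r -0.77), Rtn3 (-0.76), Spop (-0.68), Sat1 (-0.68) and Fth1 (-0.64). Rab7 is a guanosine triphosphatase of late endosomes, Rtn3 shapes the endoplasmic reticulum, Sat1 breaks down polyamines and Fth1 stores iron. They were chosen for these values, which are a description.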
